A study of Caenorhabditis elegans with 2 samples.

Results

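Small nucleolar RNA (snoRNA) genes of Caenorhabditis elegans were described here by the ChIP-seq peaks of the tagged protein ZK546.5 that lay next to them. A gene annotated as a snoRNA was chosen by having a peak summit of the pooled list within 500 bp of its 5′ end, and 165 of 346 annotated snoRNA genes met this rule (47.7%), among 46926 annotated genes in all. Since the peaks selected the genes, peak strength and rank below are descriptions, and no test was run on them.

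Both samples were L4 larvae, the last larval stage, of strain OP231 (unc-119(ed3) III; wgIs231), of mixed sex, sampled as whole animals. All of them carried a transgene for ZK546.5 fused at its C-terminus to GFP and FLAG, in an unc-119 mutant background. The promoter that drives the transgene has no entry in the sources used here. Wild-type animals and the control experiment that the labels name were not analysed here. Used were the peak lists of 2 biological replicates, 30000 pooled peaks made from both, and 304 reproducible peaks. The 304 reproducible peaks were the 304 strongest pooled peaks. By its label the pooled list holds peaks and background, so entries called peaks here need not be binding sites. The lists hold no read numbers, so depth is unknown.

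A snoRNA is a short RNA of the nucleolus that pairs with another RNA, mostly ribosomal RNA, and guides a bound enzyme to a base. C/D snoRNAs work with the methyltransferase fibrillarin and guide 2′-O-methylation, and H/ACA snoRNAs work with dyskerin and guide pseudouridylation. Many animal snoRNAs are cut out of introns of host genes, of which genes for ribosomal proteins and other parts of the translation machinery are well-known examples, while others are transcribed from promoters of their own. In nematodes both arrangements occur.

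Sequences are shown first for examples of the elements counted below, before unhosted members, and for summits nearer a host's 5′ end. Not every summit lies within the bases shown: that of C04G6.12 was 196 bp upstream of the gene. The sequences were read from the WBcel235 genome (ce11) by coordinates, 5′ to 3′ on the strand of the snoRNA. The first 4 are the 120 bases before snoRNA genes with no host, and the capitals mark a spaced element, AACNCG, then 5 bases, then TGTC.
Y53F4B.47 (II:15025894-15026013, minus strand): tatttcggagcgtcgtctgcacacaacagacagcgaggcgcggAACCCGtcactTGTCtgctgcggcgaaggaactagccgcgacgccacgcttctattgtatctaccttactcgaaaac
C16D9.10 (V:8247962-8248081, minus strand): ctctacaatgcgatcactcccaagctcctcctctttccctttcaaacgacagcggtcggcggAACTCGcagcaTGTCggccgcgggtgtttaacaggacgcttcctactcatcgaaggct
C18A3.12 (II:5701542-5701661, plus strand): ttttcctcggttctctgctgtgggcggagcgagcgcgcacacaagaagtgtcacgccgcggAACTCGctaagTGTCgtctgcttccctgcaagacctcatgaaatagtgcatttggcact
C07A9.14 (III:9717260-9717379, plus strand): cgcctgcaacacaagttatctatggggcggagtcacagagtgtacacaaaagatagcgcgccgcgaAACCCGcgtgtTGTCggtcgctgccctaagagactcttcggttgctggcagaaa
The next 4 are also the 120 bases before snoRNA genes with no host, and the capitals mark the words TGGCNNA and GTTCNANNC, which resemble the A box and the B box of tRNA genes.
T03F7.8 (V:11314138-11314257, plus strand): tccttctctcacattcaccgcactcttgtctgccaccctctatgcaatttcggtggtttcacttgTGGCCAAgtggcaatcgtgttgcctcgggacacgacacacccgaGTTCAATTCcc
C04G6.12 (II:5105232-5105351, minus strand): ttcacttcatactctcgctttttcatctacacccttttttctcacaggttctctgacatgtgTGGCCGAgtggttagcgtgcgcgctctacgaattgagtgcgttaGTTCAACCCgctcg
W03C9.9 (II:11960778-11960897, plus strand): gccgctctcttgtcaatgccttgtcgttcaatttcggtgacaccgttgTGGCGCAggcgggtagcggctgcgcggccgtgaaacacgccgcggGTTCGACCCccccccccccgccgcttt
C41C4.11 (II:8107271-8107390, minus strand): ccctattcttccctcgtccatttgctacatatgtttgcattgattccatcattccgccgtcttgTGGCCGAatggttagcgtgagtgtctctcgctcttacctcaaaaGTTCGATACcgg
These 4 are 151 bases centred on summits that lay nearer a host's 5′ end than the snoRNA's own, and the capitals mark ACCGTA or GCGCAC on either strand where present.
H06I04.9 in ubl-1 (III:3068025-3068175, plus strand): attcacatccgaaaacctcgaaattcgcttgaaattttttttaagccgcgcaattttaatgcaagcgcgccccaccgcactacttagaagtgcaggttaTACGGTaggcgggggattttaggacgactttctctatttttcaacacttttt
F54E7.10 in rps-12 (III:5679046-5679196, plus strand): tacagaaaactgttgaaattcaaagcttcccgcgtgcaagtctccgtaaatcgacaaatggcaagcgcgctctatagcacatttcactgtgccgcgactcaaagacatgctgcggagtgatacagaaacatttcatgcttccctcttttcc
Y24D9A.9 in rpl-7A (IV:4390591-4390741, minus strand): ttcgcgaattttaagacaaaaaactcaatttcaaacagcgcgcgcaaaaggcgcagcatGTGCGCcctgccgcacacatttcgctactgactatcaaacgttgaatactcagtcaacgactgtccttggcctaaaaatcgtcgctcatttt
K07C5.11 in nol-56 (V:10353119-10353269, minus strand): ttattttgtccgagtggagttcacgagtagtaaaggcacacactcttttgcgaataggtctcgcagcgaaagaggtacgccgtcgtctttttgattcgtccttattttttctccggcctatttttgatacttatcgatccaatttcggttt
Shown last are 4 snoRNAs themselves, with capitals on a C box (TGATGA in the first 20 bases), a D box (CTGA in the last 20 bases) or an ACA that ends 3 bases before the 3′ end.
H06I04.8 (III:3068806-3068883, plus strand): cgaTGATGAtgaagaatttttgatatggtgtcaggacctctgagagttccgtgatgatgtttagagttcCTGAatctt
C51F7.3 (V:12303708-12303783, plus strand): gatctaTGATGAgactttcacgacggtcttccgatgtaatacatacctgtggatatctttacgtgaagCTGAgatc
C16D9.10 (V:8247888-8247961, minus strand): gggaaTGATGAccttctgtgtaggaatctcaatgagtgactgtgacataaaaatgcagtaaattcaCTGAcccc
K07C5.11 (V:10352710-10352836, minus strand): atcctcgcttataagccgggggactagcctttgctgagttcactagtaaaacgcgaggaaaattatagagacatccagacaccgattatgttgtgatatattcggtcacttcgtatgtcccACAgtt
All of these elements were searched as letters only, and a match is a description, not a site.

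The peaks of the 165 members ranged in signal, the authors' own value per peak, from 7.48 to 579, with a median of 14.6 and an interquartile range of 10.8 to 21.5. Signal is used below only within a list. The members shared 161 distinct peaks, and 35 members had 2 or more summits within 500 bp, up to 3. In each such case the strongest was taken. Over all annotated genes 32.0% had a pooled summit within 500 bp of the 5′ end of any transcript, and over protein-coding genes 36.1%. With 1 gene-level 5′ end each, the share of protein-coding genes was 32.4%. Ranks and reproducible shares of other genes in the next paragraph also count any transcript. Windows of this size around pooled summits covered 27.2% of the genome. Among other small RNA genes the share was 41.9% for snRNA genes, 42.4% for tRNA genes, 32.2% for miRNA genes and 27.5% for piRNA genes. The rule used this position, so the share for snoRNA genes is given beside these and nothing is read from it.

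Peaks near snoRNA genes stood high in the pooled list. The median rank of the strongest peak was 4817 for the snoRNA members, 7408.5 for snRNA genes, 10581 for tRNA genes and 11658 for protein-coding genes that had a summit. A reproducible peak lay at 17 members, which is 10.3%, against 2.62% of all genes with a pooled summit and 3.84% of the protein-coding ones. For snRNA genes this share was 13% (7 of 54) and for tRNA genes 1.12% (3 of 269). Of the members, 44 (26.7%) had a peak among the strongest 1000, 67 (40.6%) among the strongest 3000 and 112 (67.9%) among the strongest 10000. The same shares over protein-coding genes with a summit were 8.73%, 18.4% and 44.9%. Across chromosomes, members made up 45.9% of snoRNA genes on I (34 of 74), 47.9% on II (34 of 71) and 46.3% on III (25 of 54). On IV the share was 54.2% (32 of 59), on V 52.7% (29 of 55) and on X 33.3% (11 of 33). Shares over all genes were not counted by chromosome, so nothing particular to snoRNA genes is read from these.

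By place in the annotation, 80 members lay inside a protein-coding gene on the same strand, the host, and 85 did not. Of all snoRNA genes 183 had a host, so members were 43.7% of the hosted and 52.1% of the unhosted genes. The 80 hosted members sat in 74 hosts, 64 of them within an intron and 16 overlapping an exon. Of the 85 unhosted members, 21 lay within a gene on the opposite strand. Median signal was 14.0 for the hosted members (range 7.55 to 579, interquartile range 10.4 to 22.8) and 15.1 for the unhosted (range 7.48 to 47.0, interquartile range 11.1 to 20.4). The interquartile ranges overlap almost whole, and what set the hosted genes apart was an upper tail of few genes. Reproducible peaks lay at 12 hosted members (15%) and at 5 unhosted members (5.88%), while peaks among the strongest 1000 lay at 23 (28.8%) and 21 (24.7%).

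**Figure D1:**
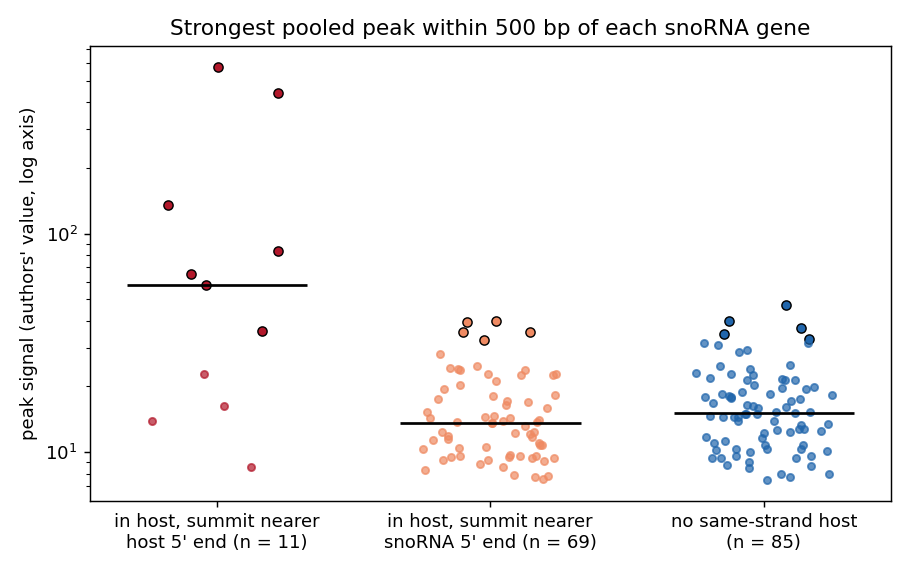
Signal of the strongest pooled peak within 500 bp of each snoRNA gene (log axis, the authors' value), in 3 groups by the host and the place of the summit. Each point is 1 gene, points with a black edge are reproducible peaks and bars are medians: 58.4 where the summit lay nearer the host's 5′ end (n = 11), 13.6 where it lay nearer the snoRNA in a host (n = 69) and 15.1 with no host (n = 85).

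The strongest peaks of the hosted genes lay nearer the host's 5′ end than the snoRNA's. Such a summit was found for 11 of the 80 hosted members (13.8%), and 10 of these 11 summits lay upstream of the host's start. In 3 of the 11 the 5′ end of another protein-coding gene was nearer still than that of the host, at F54E7.10, B0041.9 and F28C6.11. Median signal of the 11 was 58.4 (range 8.55 to 579) and 7 were reproducible. In the other 69 the median signal was 13.6, the highest 39.7, and 5 were reproducible. Both the nearness and the signal came from the list that chose the members, so this is a description. Only a snoRNA near its host's start can share a peak with it inside the window. Of the 183 hosted snoRNA genes, 32 started within 500 bp of the host's 5′ end. Of these, 16 were members, 10 with the summit nearer the host and 6 nearer the snoRNA. The remaining summit nearer a host was at Y49E10.36 in his-72. That snoRNA started 506 bp from the host's 5′ end and is among the 64 members that follow. The 64 members farther than 500 bp from the host's start had a median distance of 3341.5 bp between summit and host 5′ end, and 4 of them had a reproducible peak.

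The strongest hosted member was F39B2.14 (I:14759178-14759412, minus strand), in an exon of tmem-107, with a signal of 579 at rank 18 of the pooled list. Its summit lay 50 bp before the 5′ end of tmem-107 and 111 bp before the snoRNA, and the ribosomal protein gene rps-26 started 407 bp away. It stood at rank 18 in replicate 1 and rank 18 in replicate 2. Next was H06I04.9 (III:3068486-3068562, plus strand) in an intron of ubl-1, which encodes a ubiquitin-like protein fused to a ribosomal protein of the small subunit. Its signal was 439 at rank 23, with ranks of 22 and 24 in the replicates, and its summit lay 210 bp before ubl-1 and 386 bp before the snoRNA. Both peaks stood near the top of the pooled list and of both replicate lists.

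F54E7.10 lay in an intron of rps-12, a gene of the small ribosomal subunit, and its peak had a signal of 134 at rank 46, with replicate ranks of 59 and 54. The summit was 177 bp before rps-12 and 257 bp before the snoRNA, and the 5′ end of another gene, ska-3, was nearest at 116 bp. Y24D9A.9 in rpl-7A, a gene of the large subunit, had a signal of 83.1 at rank 70 and replicate ranks of 132 and 56, with the summit 76 bp before rpl-7A. B0041.9 in rpl-4 had a signal of 65.2 at rank 98, with ranks of 121 and 103. Its summit was 310 bp before rpl-4 and 151 bp from the 5′ end of B0041.8. All 3 stood high in both replicates.

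Other peaks of this kind were less even between the replicates. D1007.20 in rpl-24.1 had a signal of 58.4 at pooled rank 120, rank 116 in replicate 1 and rank 3831 in replicate 2. K07C5.11 in nol-56, which encodes a core protein of C/D snoRNPs, had a signal of 35.7 at pooled rank 235, rank 194 in replicate 1 and rank 12398 in replicate 2. Both were reproducible by the authors' list and were strong in replicate 1 only. nol-56 held 4 snoRNA genes, of which K07C5.11, nearest to its start at 142 bp, was the 1 member. The summits at Y37E3.21 in Y37E3.8 (22.8, rank 760), F28C6.11 in rpl-26 (16.4, rank 3061), F25H2.14 in tct-1 (13.9, rank 5883) and Y49E10.36 in his-72, a histone gene (8.55, rank 23186), were not reproducible. The summit at F28C6.11 was 255 bp before rpl-26 and 90 bp from the 5′ end of cpf-1. The summit at Y49E10.36 was the only one of the 11 that lay downstream of the host's 5′ end, by 166 bp.

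**Figure D2:**
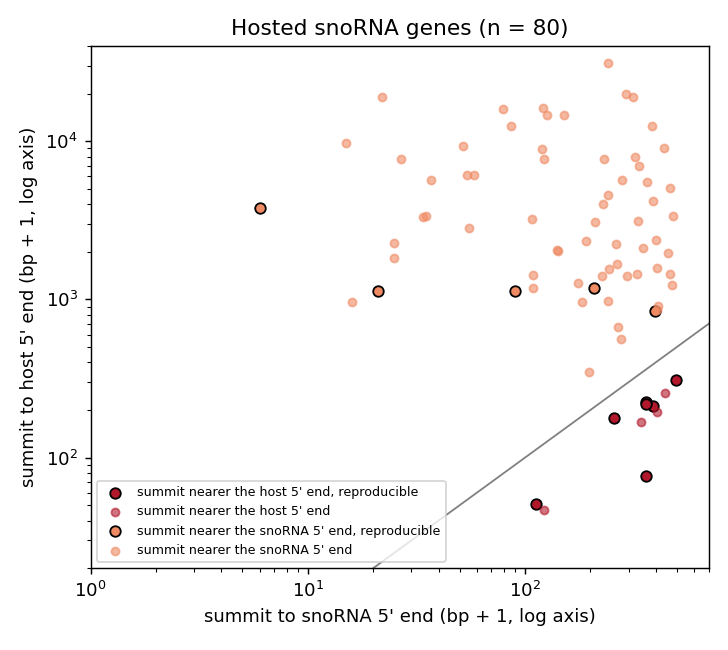
Distance from the summit to the snoRNA 5′ end (x axis, bp + 1, log axis) against the distance to the host 5′ end (y axis, bp + 1, log axis) for the 80 hosted snoRNA genes. Points below the grey line of equal distance are the 11 whose summit was nearer the host, and points with a black edge are reproducible peaks, 7 below the line and 5 above it.

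Ribosomal protein genes made up few hosts and many of the strong ones. They hosted 21 snoRNA genes, of which 10 were members in 9 hosts, with a median signal of 43.3 (range 7.70 to 439), 6 summits nearer the host and 5 reproducible peaks. Hosts of no listed class held 155 snoRNA genes and 67 members, with a median signal of 13.9. Of these members 5 had summits nearer the host and 7 had reproducible peaks. Classes were set by gene symbol alone, so a gene with a clone name, such as Y37E3.8, falls in none whatever it encodes. In the translation factor class 2 of 5 snoRNA genes were members, both in eef-1G and sharing 1 peak of signal 9.57. In the chaperone class 1 of 2 was a member, F26D10.24 in hsp-1, at 12.4. Ribosomal protein genes that hosted no snoRNA also had reproducible peaks at their 5′ ends: of 83 ribosomal protein genes 74 had a pooled summit within 500 bp and 39 a reproducible one, which splits into 9 of 14 hosts and 30 of 69 others. Of the 17 reproducible members, 6 had a ribosomal protein gene starting within 500 bp of the summit, and none had a tRNA gene there. Among all 277 protein-coding genes with a reproducible summit, 39 were ribosomal protein genes. Only 3 tRNA genes in all had a reproducible summit within 500 bp. The same shares over all reproducible peaks were not counted, so nothing particular to the members is read from these numbers.

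Taken as genes, whatever their snoRNA did, hosts had peaks at their own starts more often than the protein-coding background of 36.1%. Of 156 hosts 102 (65.4%) had a pooled summit within 500 bp of a 5′ end of any transcript, and 22 had a reproducible one, which is 21.6% of the 102 against 3.84%. Without the hosts that have a ribosomal protein symbol, 89 of 142 hosts had a pooled summit and 13 a reproducible one (14.6%). Hosts have more annotated 5′ ends, a mean of 2.46 a gene against 1.49 over all protein-coding genes. With 1 gene-level start each, 46.8% of hosts had a pooled summit against 32.4% of protein-coding genes, and 21 hosts of 267 genes in all had a reproducible one.

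In several hosts the peak at the gene's start was not the peak next to the snoRNA. rps-23 had a peak of signal 715 at rank 15 at its start, and its snoRNA F28D1.13, 398 bp inside, was a member through another summit of signal 7.70 at rank 28240. wwp-1, a ubiquitin ligase gene, had a peak of 1250 at rank 2, and its snoRNA Y65B4BR.12 a peak of 24.7 at rank 572, with a summit 2226 bp from the gene-level start. gsp-2, a protein phosphatase 1 gene, had 144 at rank 44 against 18.1 at rank 1973 for F56C9.12. A further pair was cdc-48.1, which encodes an AAA ATPase (202 at rank 37), with its member C06A1.8 (7.78 at rank 27708). pyk-1, a pyruvate kinase gene, had 49.8 at rank 146 against 9.66 at rank 17686 for F25H5.9.

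In 6 hosts 2 snoRNA genes were members. ubl-1 was described above, and its other member H06I04.8, which carries both a C box and a D box, had a separate summit 410 bp downstream of its 5′ end, outside protein-coding genes, with a signal of 28.2 at rank 403, rank 6706 in replicate 1 and rank 248 in replicate 2. prp-8, a core spliceosome gene, had a start peak of 363 at rank 25, and its members C50C3.13 and C50C3.14 had weak peaks of 9.20 and 9.27 at ranks 19875 and 19528. eef-1G, a subunit of translation elongation factor 1, had a start peak of 63.3 at rank 103. frm-7, F58D5.5 and lin-14, a regulator of larval timing, had no pooled summit at a 5′ end of their own. The lin-14 members T25C12.11 and T25C12.12 shared a peak of 13.7 at rank 6083, 18954 bp into the gene.

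The 5 reproducible peaks of hosted members nearer the snoRNA were of modest height. C51F7.3 and C51F7.4, adjacent in frm-7, shared a peak of 35.6 at rank 238, with replicate ranks of 525 and 335. The summit lay 89 bp before C51F7.3, which has a C and a D box, and 20 bp inside C51F7.4. C02F5.15 in rfs-1 had 39.7 at rank 195 and ranks of 189 and 3309, with the gene fbxl-1 starting 173 bp from the summit. K02F3.15 in zip-2, a bZIP transcription factor gene, had 39.3 at rank 198 and ranks of 236 and 974. Its summit lay 848 bp from the gene-level start and within 500 bp of another annotated 5′ end of zip-2. Y38F2AR.14 in Y38F2AR.12 had 32.6 at rank 296, rank 252 in replicate 1 and no summit within 100 bp in the list of replicate 2.

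Among the unhosted members no peak came near the strongest hosted ones, although the medians of the groups were close. F59C6.15 (I:10516978-10517150, minus strand) was the strongest at 47.0, rank 157, with replicate ranks of 168 and 770 and a summit 42 bp upstream. Y53F4B.47 (II:15025814-15025893, minus strand) had 40.0 at rank 193, ranks of 268 and 413, and a summit 24 bp upstream. T03F7.8 (V:11314258-11314332, plus strand) had 37.0 at rank 224, ranks of 274 and 325, and a summit 81 bp upstream. The summit at T03F7.8 had no protein-coding 5′ end nearer than 2724 bp, and that at F59C6.15 none nearer than 764 bp. T03F7.8 lay within cutl-18 on the opposite strand, and its summit was in an intron. For Y53F4B.47 the gene cmtr-1 started 197 bp from the summit.

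The remaining reproducible peaks of unhosted members were at T19B4.8 (34.8, rank 250, summit 133 bp upstream) and F37F2.4 (32.8, rank 291, summit 233 bp upstream). T19B4.8 stood at ranks 334 and 1176 in the replicates, and F37F2.4 at 366 and 361. The nearest protein-coding 5′ end was 4757 bp from the summit at T19B4.8. At F37F2.4 it was that of F37F2.2, 330 bp away. Just below the reproducible limit were C27H5.9 and C27H5.10, neighbours that shared a peak of 31.5 at rank 321. Both lay within pdl-1 on the opposite strand, and their summit was in an intron, 252 bp from the 5′ end of pdl-1. Then came C04G6.12 (31.0, rank 335, matched in replicate 2 only), F25H2.15 (29.5, rank 364) and ZK265.10 (28.7, rank 387). Their summits had the nearest protein-coding 5′ end at 1309, 1171 and 616 bp, in that order. smy-2 and smy-3, annotated as snoRNA genes, encode SmY RNAs, which are linked to trans-splicing in nematodes. Their peaks had signals of 20.4 at rank 1213 and 18.5 at rank 1811.

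Summits before unhosted genes gathered in the last 150 bp upstream. That interval held 36 of 85 summits (42.4%), against 15% if summits were spread evenly over the window, and the last 100 bp held 30 (35.3%). For hosted members the numbers were 21 of 80 (26.3%) and 12 (15%), and for hosted members farther than 500 bp from the host's start 19 of 64 (29.7%). Over protein-coding genes with a summit 18.3% lay in the last 150 bp, over tRNA genes 24.5%, over snRNA genes 25.9% and over miRNA genes 16.9%. The rule fixed the window and not the place inside it, yet the place came from the same summits and was not tested. Median distance to the 5′ end was 112 bp for the unhosted and 240 bp for the hosted members. Summits inside the snoRNA itself were 12 and 9.

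**Figure D3:**
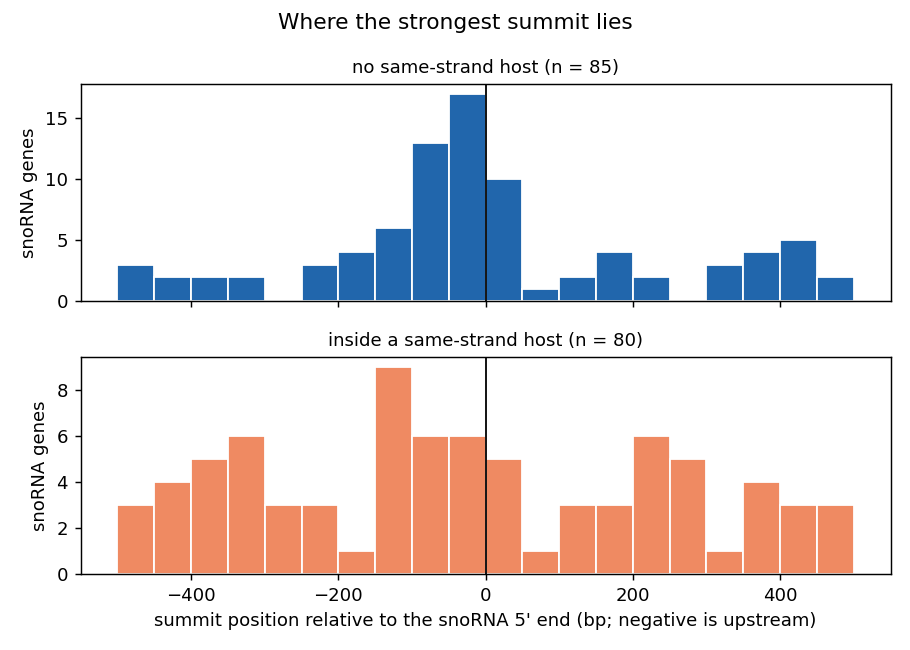
Position of the strongest summit relative to the snoRNA 5′ end (x axis, bp, negative is upstream) as the number of genes per 50 bp (y axis), for the 85 unhosted members above and the 80 hosted members below. The unhosted summits gather between 100 bp upstream and the 5′ end, where 30 of them lie, and the hosted summits are spread over the window.

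The sequences before unhosted members held 2 kinds of element. These elements were picked after the sequences before the strongest unhosted members had been read. Their shares among the strong members are part of that choice. So are the signals, ranks and reproducible peaks given below for members with an element. The spaced element lay in the 150 bases before 14 of 85 unhosted members (16.5%), 8 of 80 hosted members (10%), 9 of 78 unhosted snoRNA genes without a peak (11.5%) and 4 of 103 hosted ones without (3.88%). It lay before 23.3% of snRNA genes (30 of 129), 0.327% of tRNA genes and 0.0601% of protein-coding genes (12 of 19973). Before the unhosted members its first base sat between 77 and 54 bases upstream of the annotated 5′ end. Its place was thus nearly fixed, while the letters between its parts differed.

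Peaks at the 14 unhosted members with the spaced element had a median signal of 18.8 (range 7.74 to 47.0) and a median rank of 1730. Of these peaks 2 were reproducible, and 9 of the 14 summits lay within 100 bp of the element. The last 100 bp upstream, where the element lies, held 6 of the 14 summits and 18 of the 63 at unhosted members with neither element. F59C6.15 and Y53F4B.47, the strongest unhosted members, both had it, with the summit 22 and 46 bp from its middle. C16D9.10, shown above with its C and D boxes, had a peak of 25 at rank 551, replicate ranks of 751 and 409 and a summit 15 bp from the element. At T21F2.3 and Y67A10A.14 the summit lay 394 and 467 bp from it. Among the hosted members, smy-2 had the element as well.

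A box-like word followed by a B box-like word was found before 8 unhosted members (9.41%), 3 hosted members (3.75%), 5 unhosted genes without a peak (6.41%) and 2 hosted ones without (1.94%), against 0.0951% of protein-coding genes (19 of 19973) and none of 129 snRNA genes. No tRNA gene is annotated within 150 bp of any of the 8, and none of them had the spaced element. Their peaks had a median signal of 22.7 (range 7.94 to 37.0) and a median rank of 807, 5 were among the strongest 1000 and 2 were reproducible, T03F7.8 and T19B4.8. In 7 of the 8 the summit lay within 100 bp of the words, and in 3 it lay on or between them. C04G6.12 was the exception, with its summit 138 bp away. The last 100 bp upstream, where the words lie, held 6 of these 8 summits and 18 of the 63 at unhosted members with neither element. The 63 unhosted members with neither element had a median signal of 14.5, a median rank of 4992 and 1 reproducible peak, F37F2.4. Since the elements were picked from the strongest unhosted members, these values are not independent of that choice. The difference was not tested.

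**Figure D4:**
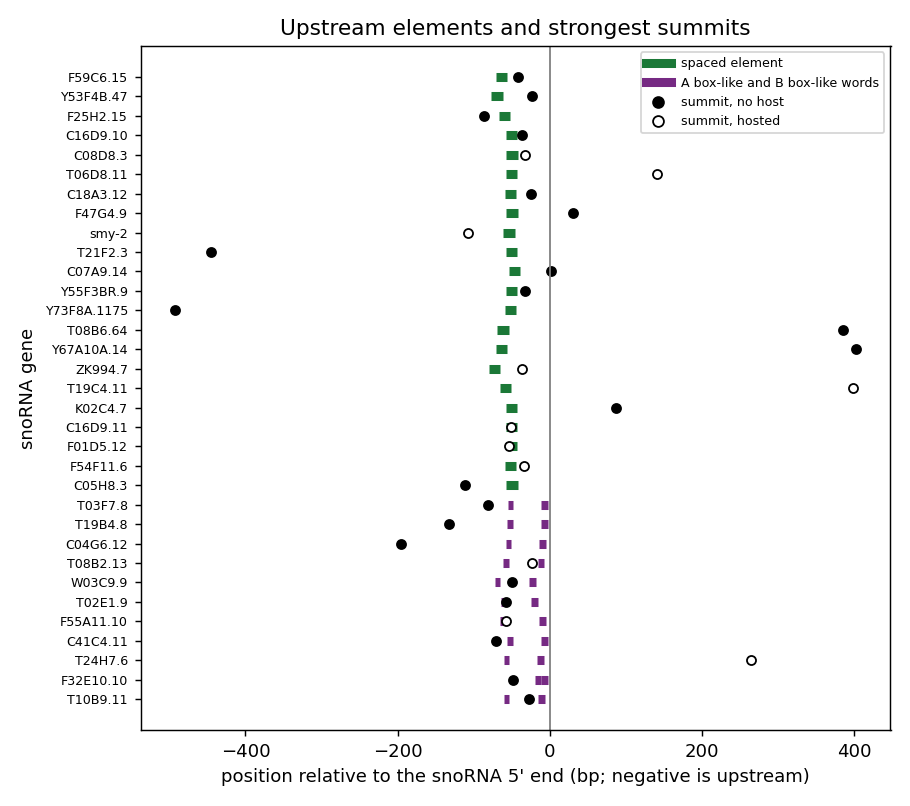
Position of the spaced element (green, 22 genes) and of the A box-like and B box-like words (purple, 11 genes) relative to the snoRNA 5′ end (x axis, bp, negative is upstream), with the strongest summit as a filled point for unhosted and an open point for hosted members. Genes are ordered by rank within each kind, strongest at the top, and most summits lie at or next to the elements while a few lie 394 bp or farther away.

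Summit windows of 201 bp were searched for 3 words on both strands. GCGCAC was in 22 member windows (13.3%), 16 of the 85 unhosted (18.8%) and 6 of the 80 hosted (7.5%), against 3.35% of all pooled windows. Member windows were counted per gene, so a shared peak counts once for each of its members, while pooled windows count each peak once. Among those with GCGCAC, C51F7.3 and C51F7.4 shared a window, as did C27H5.9 and C27H5.10. ACCGTA was in 7 hosted windows (8.75%), among them those of H06I04.9 in ubl-1 and D1007.20 in rpl-24.1, in none of the unhosted and in 5.47% of pooled windows. TGCGTCTC was in 6 (3.64%), against 1.73%. Median GC content was 41.8% in member windows and 34.8% in pooled windows, and its part in these counts was not tested. Member peaks also stood high in the pooled list, at a median rank of 4817, and pooled windows of like rank were not counted. Where the 3 words came from is not recorded here, so they need not be independent of these peaks.

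The share of genes with a box was not the same in hosted and unhosted genes. The ACA of H/ACA snoRNAs was present at the 3′ end of 22 hosted members (27.5%) and 7 unhosted members (8.24%), and the D box in 20 (25%) and 31 (36.5%). Among the snoRNA genes without a peak the ACA was in 23 of 103 hosted (22.3%) and 6 of 78 unhosted genes (7.69%), so it followed the host in both. The D box was in 20.4% of the hosted and 11.5% of the unhosted genes without a peak. A C box in the first 20 bases was found in 20 of all 346 genes (5.78%), and the search allowed no mismatch and used the annotated ends. Median length was 126 bases in hosted and unhosted members alike, 129 in hosted genes and 153 in unhosted genes without a peak.

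The proteins that work with snoRNAs had peaks of their own. Of 9 genes found for snoRNP proteins and their assembly, 7 had a pooled summit within 500 bp, beside 36.1% of protein-coding genes, and 1 was reproducible. The reproducible peak was that of nol-56, also the peak of K07C5.11. fib-1, which encodes fibrillarin, had 27.3 at rank 439, and snu-13, a protein that binds C/D snoRNAs, 24.7 at rank 578. ruvb-2, a helicase of snoRNP assembly, had 18.1 at rank 2000, dkc-1, the pseudouridine synthase, 17.3 at rank 2411, nol-58, a core C/D protein, 15.1 at rank 4224 and nola-3, a core H/ACA protein, 14.3 at rank 5217. ruvb-1 and Y48A6B.3 had no summit in the window, with the nearest at 628 and 1863 bp.

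Between the replicates, 59 of the 165 members had a summit within 100 bp of the pooled one in both lists, 101 in replicate 1, 104 in replicate 2 and 19 in neither. Across the 59 the ranks in the replicates had a Spearman's rho of 0.461, over genes that share libraries and with no test, 0.553 over 26 hosted and 0.390 over 33 unhosted genes. Of the 11 members whose summit was nearer the host 9 were matched in both, and of the other 69 hosted members 17. Weaker peaks often stood at very different ranks in the replicates.

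**Figure D5:**
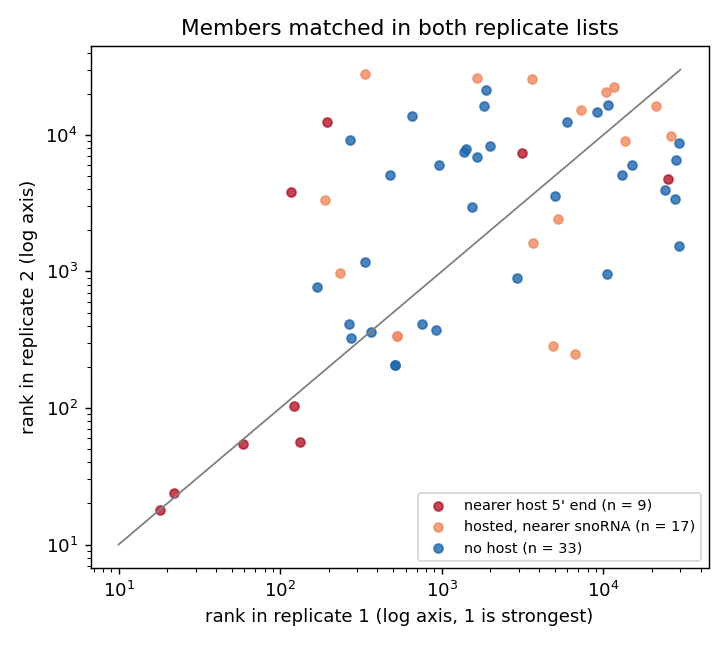
Rank of the member's peak in the list of replicate 1 (x axis, log axis, 1 is strongest) against replicate 2 (y axis, log axis) for the 59 members matched within 100 bp in both lists: 9 with the summit nearer the host, 17 other hosted and 33 unhosted. The grey line is equal rank. The points farthest to the lower left are peaks nearer the host's 5′ end. Unhosted peaks also lie near the line, such as T03F7.8 (ranks 274 and 325) and F37F2.4 (366 and 361).

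Measured to the nearest summit of each gene, the members just inside 500 bp were B0041.9 at 494 bp (65.2, rank 98), an unhosted gene with the spaced element at 493 bp (15.3), ZK185.9 at 490 bp (9.43) and C50C3.14 at 481 bp (9.27). Just outside were R151.11 in rpl-6 at 503 bp (82.7, rank 71), C06A1.9 in cdc-48.1 at 505 bp (202, rank 37), Y44A6C.3 at 511 bp (16.2) and Y110A2AL.20 in ubc-26 at 519 bp (9.12). Over the 181 snoRNA genes that were not members the nearest summit lay a median of 1334 bp away and at most 12902 bp.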

How the data were processed

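ChIP-seq peak lists of 2 biological replicates were used, with the authors' pooled and reproducible lists, all in ce11, which is the same build as WBcel235. Lists in ce10 were not used. Per the deposited text files, the pooled list came from the alignments of both replicates, and the reproducible list from thresholding on the irreproducible discovery rate. The aligner and peak caller were not given in the sources used here. The deposited signal is the authors' value per peak, and its scaling between lists is not given. The last column of each deposited list gives the summit as an offset from the start.

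Genes came from Ensembl release 115. A 5′ end is the annotated gene end, or that of any transcript where said. The host was the shortest same-strand protein-coding gene containing the snoRNA, and replicate summits were matched within 100 bp. Annotated 5′ ends can lie downstream of true starts, since many transcripts are trans-spliced. Counting used Python 3.11.15, pandas 2.3.3, numpy 2.4.6 and scipy 1.17.1, and was checked on made-up data.

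Named genes were all members with a reproducible peak, the 10 strongest hosted and unhosted members, hosts with 2 or more members, genes at the edge of the window, and host classes and snoRNP genes by symbol. Of the snoRNP symbols searched, 5 were not found, and gar-1 was left out because in C. elegans it names an acetylcholine receptor gene. Members of the spaced and A box-like sets, and hosts with a strong start peak, were named after their values were seen. The members and lists were chosen with earlier results of these data known.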

Additional observations from a re-analysis of the deposited data

How the results depend on the processing

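Of 37 values recomputed under alternatives, 26 stayed within 1.5 times of the reported value and 11 did not. A window of 200 bp gave 103 members, 37 hosted, 2 with the summit nearer the host and 8 reproducible. A window of 1000 bp gave 123 hosted members, 39 nearer the host and 32 reproducible, and 230 members in all. By construction these counts follow the window. With each replicate left out in turn the median signal was 7.15 to 8.57 for hosted and 7.83 to 8.97 for unhosted members, since each replicate list has its own signal values, and the counts of members were 156 and 164. The stronger part of the pooled list, the nearest summit, other host 5′ ends and partial overlap with a host moved no value by over 1.5 times. The lists hold no read numbers, no control was analysed here, and weak entries of the pooled list need not be binding sites.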

Other observations

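The spaced element occurred 1900 times in the nuclear genome, on both strands. Of these, 102 (5.37%) lay within 100 bp of a pooled summit and 4 within 100 bp of a reproducible one, while windows of that size around pooled summits covered 6.01% of the genome. Before snoRNA genes, within 150 bases of the 5′ end and on the same strand, there were 35 occurrences, and 16 of them (45.7%) lay within 100 bp of a pooled summit. Before snRNA genes 8 of 28 did, before ncRNA genes 4 of 18, before piRNA genes 0 of 28, and before protein-coding genes 1 of 14. The 1865 occurrences not before a snoRNA gene had a pooled summit within 100 bp in 86 cases (4.61%). Summits also gathered before unhosted members with neither element, where 22 of 63 lay in the last 150 bp upstream. Those 63 are members only, so this share is not measured alike. The share near a summit at the same place before snoRNA genes without the element was not counted. The element was chosen from members, so the share before snoRNA genes is a description and no test was run.

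The B box-like word was also searched inside the snoRNA genes. It was present in 6 members (3.64%) and in 8 of the genes without a peak (4.42%), and followed an A box-like word in 1 member, Y77E11A.21. C51F7.4, which shared a reproducible peak with C51F7.3, held the B box-like word alone.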
